A study of Mus musculus with 39 samples.

Results

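The 8 genes described here are the enzymes and partners that write DNA methylation, Dnmt1, Uhrf1, Dnmt3a, Dnmt3b and Dnmt3l, and the TET dioxygenases that remove it, Tet1, Tet2 and Tet3. They were chosen by name. All 8 were found among the 32285 genes of both single-cell libraries of the study. The study compared Kdm6a fl/y; Cre- mice (control) with Kdm6a fl/y; Ddx4-Cre+ mice (cKO). Kdm6a, also named Utx, encodes an X-linked demethylase of histone H3 lysine 27, so males carry a single copy, and both genotypes carried the floxed allele. Ddx4 is a germ-cell gene, so this Cre is driven in germ cells and not in the somatic cells of the testis. Whole testes were dissociated for 10x Chromium 3' libraries, 1 per genotype, and no age of the mice is given with them. The same 2 genotypes also gave cKIT+ spermatogonia for ATAC-seq (2 control and 3 cKO libraries) and for CUT&Tag of H3K27me3, the mark that KDM6A removes (2 control and 3 cKO libraries, with 1 control IgG library).

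DNA methylation in mammals sits mostly on cytosines followed by guanine. DNMT1 copies it to the new strand behind the replication fork, and UHRF1 brings DNMT1 to half-methylated sites. DNMT3A and DNMT3B add methylation to unmethylated sites, DNMT3L has no catalytic activity of its own and stimulates them, and the TET proteins oxidise methylcytosine, which leads to its loss. In the male germ line the genome is remethylated before birth in prospermatogonia, where Dnmt3l is known to be needed, and the pattern is then maintained through the divisions of spermatogonia until the last S phase before meiosis, in preleptotene cells.

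With 1 library per genotype there is no replicate, so no test was made between genotypes. Each level is in CPM, the unique molecular identifiers (UMIs) of a gene scaled to 1000000 UMIs of the class of cells named. Intervals are exact 95% intervals that cover counting error only, Poisson for a level and conditional binomial for the log2 ratio of 2 levels. The control library held 11252 barcodes with at least 3000 UMIs (median 8410.5 UMIs) and the cKO library 8520 (median 8499). The libraries shared 30 barcodes, against 14.1 expected by chance, which is 0.267% of control and 0.352% of cKO cells. Scrublet called 5.25% of control and 6.20% of cKO cells doublets, and these were kept.

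Cells were classed by marker genes, none of which is among the 8 genes. Each class is named after the cell type whose markers led, with the ending -like, and is a range of a score, not a type. Cells within 0.05 of the required lead over the next class made up 3.22% of control and 3.24% of cKO cells, and 6.84% and 6.31% were left without a class. The spermatogonia-like class held 280 control and 229 cKO cells, mostly from the differentiating gate (251 and 197). The other germ-cell classes held 144 and 42 preleptotene-like, 824 and 528 early-prophase-like, 1965 and 1503 pachytene-like (pachytene and later), 1912 and 1824 round-spermatid-like, and 4872 and 3486 elongating-spermatid-like cells. Somatic classes were small, with 101 and 101 Leydig-like and 345 and 250 Sertoli-like cells. The median spermatogonia-like cell carried 1526 CPM in the control and 1739 in the cKO library of the differentiating list, and 973 and 900 of the early-prophase list. In the median early-prophase-like cell the early-prophase list stood at 7302 and 7033 and the preleptotene list at 2749 and 2822. UMIs of elongating-spermatid markers were counted in every class: the 10 markers summed to 23554 and 27751 CPM in spermatogonia-like cells, and to 72926 and 64443 in Sertoli-like cells, above the 46726 and 39024 of free RNA (barcodes with at most 100 UMIs). Leydig-like cells carried 24136 and 20137. The part of that RNA in the levels of the 8 genes was not tested beyond the estimates of free RNA given below.

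Kdm6a itself had 304 UMIs in the control and 75 in the cKO library, a log2 ratio of -1.60 (-1.98 to -1.23). In the early-prophase-like class it had 106 and 8 UMIs, and in differentiating spermatogonia-like cells 40 and 4. Sertoli-like cells, a somatic class, had 17 and 24 UMIs. The 32 undifferentiated spermatogonia-like cells of the cKO library still held 6 UMIs, against 3 in 29 control cells. The labels do not say which exons the lox sites flank, and a 3' tag may lie outside them, so these counts check the genotype labels only in part.

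Of the 8 genes, 5 had their highest control level in the spermatogonia-like class: Dnmt1, Uhrf1, Dnmt3a, Dnmt3b and Tet3. The same 5 had it there in the cKO library, although spermatogonia-like and preleptotene-like cells did not differ beyond counting error in it for Dnmt1, Dnmt3a (0.77, -0.42 to 2.26) or Tet3 (0.07, -0.69 to 0.93), and with thinned cells Tet3 was at 71.4 in preleptotene-like and 71.3 in spermatogonia-like cells. Among the 13867 genes with at least 200 UMIs in the control library, 13.5% had their highest level in that class. Dnmt3l peaked instead in round-spermatid-like cells, and Tet1 had only 19 UMIs in 11252 control cells. Tet2 was highest in the 2 somatic classes, though the step from the lower of them to the next germ-cell class did not exceed counting error.

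**Figure D1:**
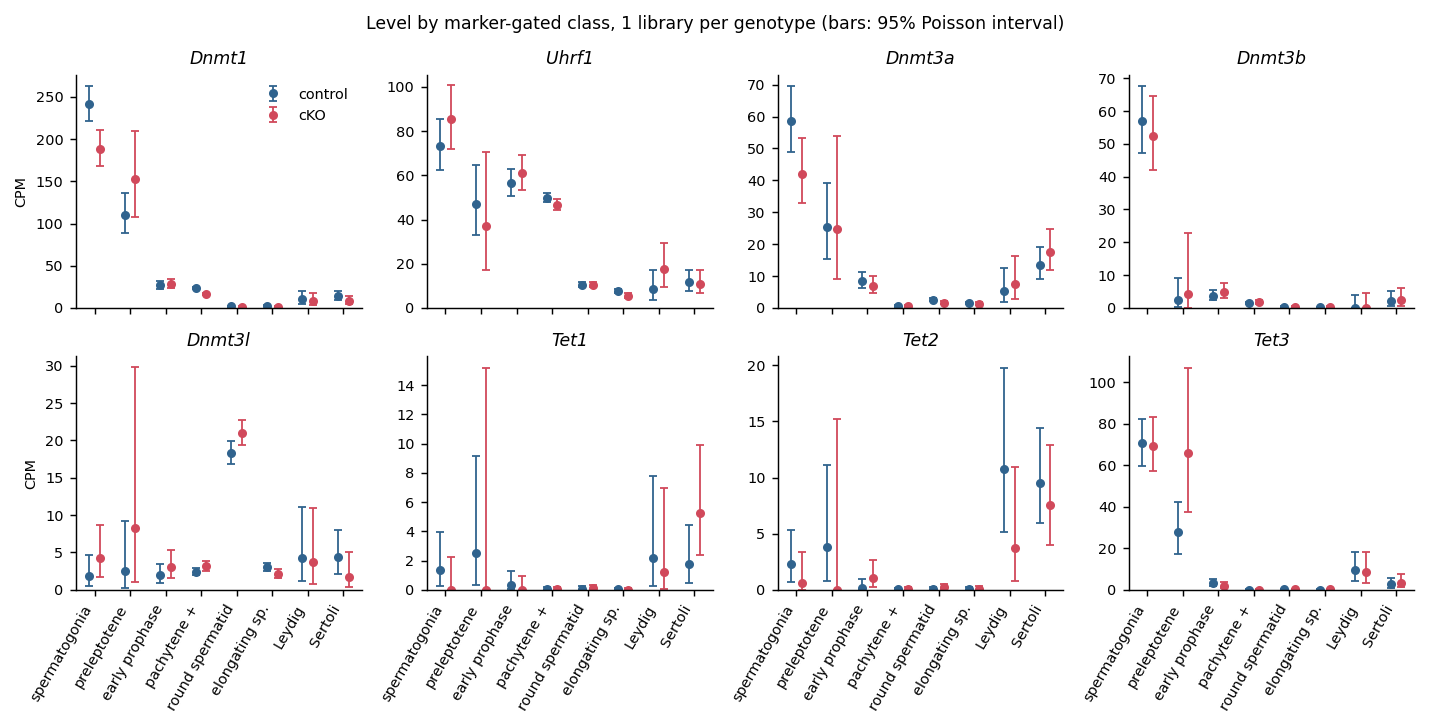
Level of each of the 8 genes (y axis, CPM) in 8 marker-gated classes (x axis) of the control library (blue) and the cKO library (red); points are summed levels and bars exact 95% Poisson intervals. Dnmt1, Uhrf1, Dnmt3a, Dnmt3b and Tet3 are highest in spermatogonia-like cells, Dnmt3l in round-spermatid-like cells at 18.4 control and 21.0 cKO, and the scales differ between panels.

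Dnmt1, the maintenance methyltransferase (ENSMUSG00000004099), had 532 UMIs in control and 313 in cKO spermatogonia-like cells, levels of 242 and 188 CPM. In preleptotene-like cells, which replicate their DNA once more before meiosis, the levels were 110 and 152. They were 27.03 and 28.2 in early-prophase-like, 23.3 and 16.6 in pachytene-like, and below 2.5 in both spermatid classes. The control fall from spermatogonia-like to preleptotene-like cells was 1.14 on the log2 scale (0.81 to 1.48), and the next step, to early-prophase-like cells, was 2.03 (1.63 to 2.41). Early-prophase-like and pachytene-like cells did not differ beyond counting error in the control library (0.22, -0.04 to 0.46). In the cKO library spermatogonia-like and preleptotene-like cells did not (0.31, -0.19 to 0.84). Within the spermatogonia-like class the level was lower in the undifferentiated gate, at 84.0 control and 85.1 cKO, than in the differentiating gate, at 268 and 211.

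Although the level was highest in spermatogonia-like cells, most Dnmt1 molecules lay elsewhere. Spermatogonia-like cells held 24.0% of the control and 27.1% of the cKO Dnmt1 UMIs, and pachytene-like cells, which are larger and more numerous, 46.0% and 42.5%. The clusters of the cells, found without the 8 genes, resolve the pachytene-like class. In the control library Dnmt1 stood at 42.8 in cluster 12 (led by Piwil1 and Tex101), 32.7 in cluster 9 (Mllt10 and Phf2), 16.2 in cluster 16 (Pou5f2), 9.94 in cluster 11 (Ccna1, Aurka and Plk1) and 4.79 in cluster 20 (Ccnb1 and Speer4e). The cKO library gave the same order, with 27.8, 27.1, 12.8, 8.86 and 4.38.

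Dnmt1 was lower in the cKO library in spermatogonia-like and pachytene-like cells. The log2 ratio of cKO over control was -0.36 (-0.57 to -0.16) in spermatogonia-like cells, where the median of all 11686 genes with at least 20 UMIs was -0.08, and it moved to -0.13 when every cell was thinned to 3000 UMIs. By the Leydig list, free RNA was estimated at 27.3% of control and 8.92% of cKO UMIs in that class. With free RNA subtracted from the Dnmt1 UMIs the ratio was -0.35. The class totals were left whole, so this value does not allow for the unequal shares, and their part in the ratio was not tested. It was -0.35 (-0.56 to -0.14) in the differentiating gate and -0.49 (-0.65 to -0.33) in pachytene-like cells, where the median of all genes was -0.04. Pachytene-like cells had a median of 21215 control and 17782 cKO UMIs. With cells thinned to 3000 UMIs, 6.41% of control and 5.39% of cKO pachytene-like cells held a Dnmt1 UMI. The exact binomial intervals of these shares overlapped (5.37 to 7.59 and 4.30 to 6.65). The cluster with the most cells gated as pachytene-like was cluster 9 in the control and cluster 16 in the cKO library, so the clusters are also compared one by one: the ratio was -0.63 (-0.93 to -0.33) in cluster 12, -0.27 (-0.54 to -0.00) in cluster 9, -0.34 (-0.70 to 0.01) in cluster 16, -0.16 (-0.78 to 0.44) in cluster 11 and -0.13 (-1.31 to 0.99) in cluster 20. Early-prophase-like cells showed no difference beyond counting error (0.06), and preleptotene-like cells had a ratio of 0.47 (-0.13 to 1.04). The preleptotene-like class was not made up alike: 109 of the 144 control cells lay in cluster 27 (led by Stra8 and Esco2) and 15 in the spermatogonial cluster 23, while 17 of the 42 cKO cells lay in each. Every level, step and ratio of this class carries that limit, and within cluster 27 the Dnmt1 ratio was 0.30 (-0.43 to 0.96). Over the clusters with at least 20 Dnmt1 UMIs, Dnmt1 was lower in the cKO library in 10 of 12. Of the 4866 genes with at least 20 UMIs in the same clusters, 28.6% were lower in as many. Of these ratios only that of cluster 12 passed 1.5-fold, the size used here to name a difference, and those of the whole spermatogonia-like, preleptotene-like, early-prophase-like and pachytene-like classes did not.

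That size was passed in 3 classes where Dnmt1 was low. Round-spermatid-like cells had 59 control and 38 cKO UMIs, a ratio of -0.59 (-1.22 to 0.03), and 11.0% of all genes tested there were lower by 1.5-fold or more. Elongating-spermatid-like cells had 92 and 34 (-0.84, -1.45 to -0.26, with 12.0% of genes), and Sertoli-like cells 33 and 14 (-0.82, -1.83 to 0.12, with 9.51%). The Sertoli-like class was not made up alike. Of its 345 control cells 193 lay in cluster 25 and 82 in cluster 26, and of its 250 cKO cells 68 and 136. Every level, step and ratio of the Sertoli-like class carries that limit. Scaled by the Leydig markers, free RNA alone would give 36.4 and 35.7 Dnmt1 UMIs in round-spermatid-like and 65.0 and 26.1 in elongating-spermatid-like cells. The same scaling gave 13.75 Tet2 UMIs in control round-spermatid-like cells, where 2 were counted. In control elongating-spermatid-like cells it gave 24.6 Tet2 UMIs, where 3 were counted. It is thus too high for some genes, and no share of Dnmt1 as free RNA is read from it in these classes. For Sertoli-like cells no estimate can be used, because their elongating markers exceed those of free RNA, a share of 156% in control and 165% in cKO cells. In spermatogonia-like cells it would give 6.8 of 532 and 1.8 of 313.

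RefSeq lists 3 start sites for Dnmt1, which is known to use different first exons in germ cells and somatic cells. The most upstream and the most downstream are shown because ATAC-seq told them apart. A window of 250 bases before to 50 bases after each start is printed 5′ to 3′ on the transcribed strand (minus), with each CG in capitals, from the RefSeq annotation of GRCm38.p6, the assembly that mm10 names.
Dnmt1 upstream site, chr9:20959839-20960138: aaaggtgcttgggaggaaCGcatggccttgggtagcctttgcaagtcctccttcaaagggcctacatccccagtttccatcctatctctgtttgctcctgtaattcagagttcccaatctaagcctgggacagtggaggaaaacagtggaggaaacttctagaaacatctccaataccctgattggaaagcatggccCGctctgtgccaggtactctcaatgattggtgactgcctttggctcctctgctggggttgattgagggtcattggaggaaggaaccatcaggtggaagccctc
Dnmt1 downstream site, chr9:20952574-20952873: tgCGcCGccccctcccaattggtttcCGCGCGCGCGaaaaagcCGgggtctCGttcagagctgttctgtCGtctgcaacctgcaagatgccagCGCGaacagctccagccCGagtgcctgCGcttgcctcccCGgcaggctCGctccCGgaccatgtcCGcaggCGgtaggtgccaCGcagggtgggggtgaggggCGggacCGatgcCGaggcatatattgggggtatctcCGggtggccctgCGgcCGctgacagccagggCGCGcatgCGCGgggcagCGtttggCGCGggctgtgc
The upstream window holds 2 CG, and 85.9% of the 32851 start sites of all genes hold as many or more. The downstream window holds 33, as many as 8.56% of sites, where the median is 7. In cKIT+ spermatogonia no ATAC library had a peak within 1000 bases of the upstream start. All 5 had a peak over the downstream start, with the authors' fold enrichment at 5.46 and 6.98 in the control and 5.03, 5.54 and 6.14 in the cKO libraries, ranges that overlap. In each library the same peak also covered the middle start, whose window holds 12 CG. The 3′ tags of the single-cell libraries do not tell which start was used.

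Uhrf1, which recruits DNMT1 to newly replicated DNA (ENSMUSG00000001228), followed a flatter course. Spermatogonia-like cells had 161 control and 142 cKO UMIs, levels of 73.2 and 85.5. The levels in preleptotene-like cells were 46.8 and 37.1, in early-prophase-like cells 56.5 and 60.9, and in pachytene-like cells 50.0 and 46.6. These levels fell less from spermatogonia-like to pachytene-like cells than those of Dnmt1, though in the cKO library by more than 1.5-fold. The control steps from spermatogonia-like to early-prophase-like (0.37, 0.09 to 0.65 in the control library, and 0.69 with thinned cells) and on to pachytene-like cells (0.18, 0.00 to 0.35) compare with cKO steps of 0.49 (0.18 to 0.79) and 0.39 (0.18 to 0.59) on the log2 scale. By cluster, Uhrf1 was still at 44.9 control and 40.9 cKO in cluster 20, the last pachytene-like cluster by falling prophase markers, and at 28.4 and 25.9, then 16.9 and 15.6, in round-spermatid-like clusters 21 and 7. Round-spermatid-like cells as a whole stood at 10.4 and 10.5, and elongating-spermatid-like cells at 7.70 and 5.58. Pachytene-like cells held 59.6% of control and 55.6% of cKO Uhrf1 UMIs.

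In spermatogonia-like cells the cKO over control ratio of Uhrf1 was 0.22 (-0.11 to 0.56). Over all clusters with at least 20 UMIs, Uhrf1 was lower in the cKO library in 22 of 28, and 30.6% of genes were lower in as many, beside the 10 of 12 of Dnmt1. Within the spermatogonia-like class the intervals of the 2 genes did not overlap. With thinned cells the values of that class were 0.13 for Uhrf1 and -0.13 for Dnmt1. The difference between the 2 genes has no replicate check. The small cluster 32, led by Ccnd2, Sdc4 and Trim71, had 39 control and 11 cKO UMIs (-1.37, -2.49 to -0.38), singled out after its values were seen. The undifferentiated gate, of which 21 of 29 control and 24 of 32 cKO cells lay in that cluster, had 18 and 16 Uhrf1 UMIs and a ratio of -0.09 (-1.16 to 0.96). In pachytene-like cells the ratio was -0.10 (-0.20 to -0.00) and in elongating-spermatid-like cells -0.47 (-0.76 to -0.17), where 297 control and 142 cKO UMIs compare with 117 and 39.0 estimated as free RNA. In control cells of the latter class the same scaling gave 72.2 Dnmt3a UMIs, where 57 were counted, so it is too high for some genes. Only Leydig-like cells passed 1.5-fold for Uhrf1, with 8 control and 14 cKO UMIs (1.02, -0.33 to 2.48). There 13.8% of genes were higher by 1.5-fold or more, and free RNA would give 9.8 and 7.5 UMIs. Both RefSeq start sites of Uhrf1 (chromosome 17, plus strand) had an ATAC peak within 1000 bases in all 5 libraries. The peak covered the downstream start, whose 300-base window holds 33 CG, with folds of 4.33 and 5.16 in control and 3.90, 4.54 and 5.41 in cKO libraries.

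**Figure D2:**
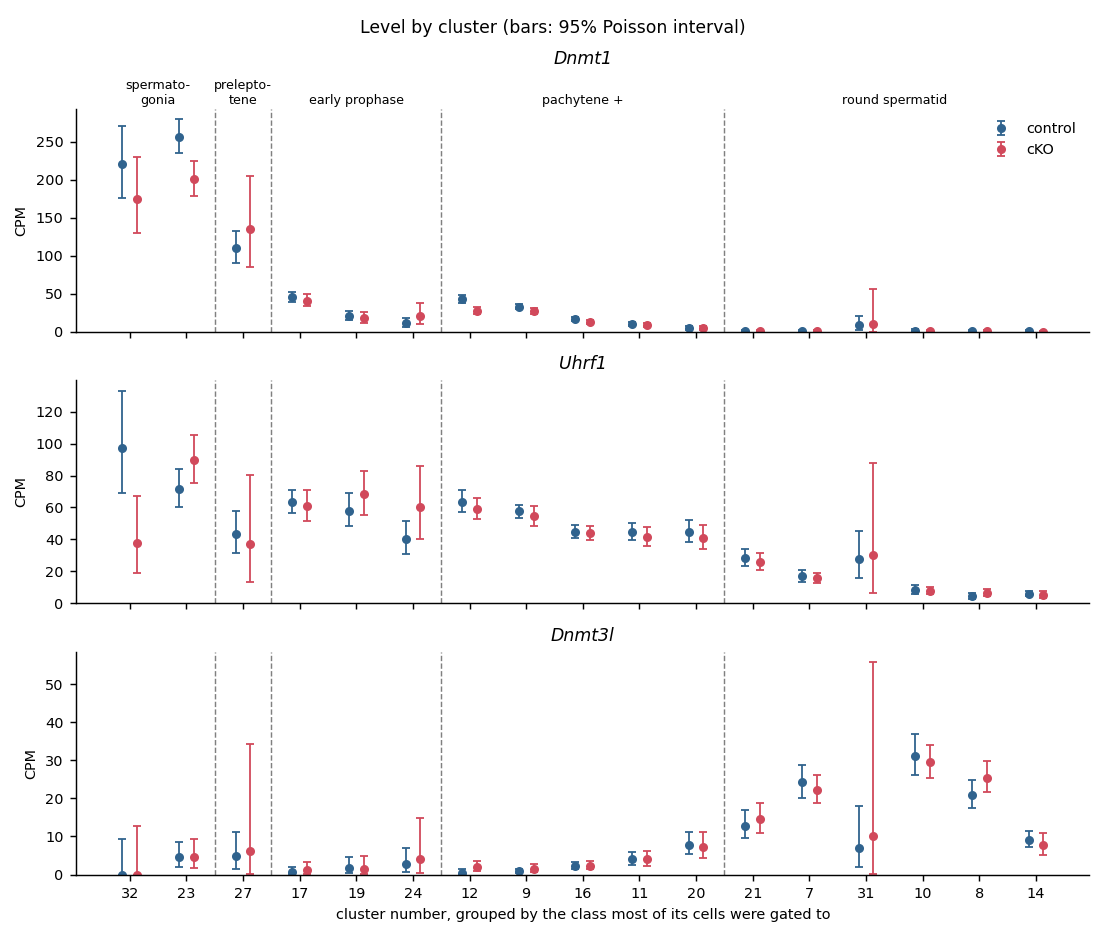
Levels of Dnmt1, Uhrf1 and Dnmt3l (y axes, CPM) in 17 clusters of germ cells (x axis), grouped by the class that most cells of the cluster were gated to and, within a class, ordered by falling levels of the markers of the preceding stage; blue is control, red cKO, bars are exact 95% Poisson intervals. Dnmt1 falls along the pachytene-like clusters from 42.8 to 4.79 in the control library, Uhrf1 stays above 40 in the control library from cluster 17 to cluster 20, and Dnmt3l rises to 31.2 control and 29.4 cKO in cluster 10.

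Dnmt3a, a de novo methyltransferase (ENSMUSG00000020661), had 129 control and 70 cKO UMIs in spermatogonia-like cells, levels of 58.7 and 42.1. Preleptotene-like cells stood at 25.3 and 24.7 from 20 and 6 UMIs, Sertoli-like cells at 13.5 and 17.4, and early-prophase-like cells at 8.55 and 6.91. The control steps from spermatogonia-like to preleptotene-like (1.21, 0.53 to 1.97) and on to Sertoli-like cells (0.91, 0.02 to 1.77) exceeded counting error, and the cKO steps (0.77, -0.42 to 2.26, and 0.51, -1.05 to 1.79) did not. Pachytene-like cells were lowest, at 0.59 and 0.64, with 26 and 19 UMIs where 59.0 and 50.7 would come from free RNA. That estimate is above the count itself. The Sertoli-like level rested on 31 and 30 UMIs.

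The cKO over control ratio of Dnmt3a was -0.48 (-0.92 to -0.05) in spermatogonia-like cells, short of 1.5-fold. It was -0.14 with cells thinned to 3000 UMIs and -0.79 in cells with at least 5000 UMIs. Both values lie within the interval of the main ratio. They have no interval of their own, so the part of counting error in their spread was not tested. In cluster 23, the main spermatogonial cluster (led by Crabp1, Uchl1 and Hells), it had 116 and 68 UMIs, and in cluster 32 it had 33 and 11, so both clusters were lower. Round-spermatid-like cells passed the fold, with 78 and 48 UMIs (-0.65, -1.20 to -0.12). The free RNA estimate there was 40.4 and 43.2, from a scaling that was too high for some genes of that class, as given for Dnmt1. The cluster with the most cells gated to that class was cluster 14 in the control and cluster 7 in the cKO library. In cluster 14, where Dnmt3a was counted 40 and 18 times, the levels were 4.99 and 4.31. The 3 start sites of Dnmt3a lie on chromosome 12, plus strand. The second, at position 3807160, has 47 CG in its window, as many as 1.44% of all sites, and its peak lay between 811 and 924 bases downstream in all 5 ATAC libraries. The third, at 3891744, had a peak in 2 of 2 control and 1 of 3 cKO libraries. The 2 cKO libraries without it have the shortest lists (14635 and 18883 peaks), and control replicate 1, with 19118 peaks, had it.

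Dnmt3b, the other de novo methyltransferase (ENSMUSG00000027478), had the largest step among the 8 genes from its highest control class to the next. Spermatogonia-like cells held 125 control and 87 cKO UMIs, levels of 56.9 and 52.4. Early-prophase-like cells, next in order, had 21 and 19 UMIs at 3.66 and 4.87. The difference between these classes was 3.96 (3.28 to 4.70) on the log2 scale in the control and 3.43 (2.70 to 4.23) in the cKO library. Pachytene-like cells had 1.53 and 1.72, and the Leydig-like class had no Dnmt3b UMI in either library, for which the upper ends of the Poisson intervals were 3.97 CPM in control and 4.61 in cKO cells. The ratio of cKO over control was -0.12 (-0.53 to 0.29) in spermatogonia-like cells. Reads of Dnmt3b and of its gene copy Dnmt3c may have been split in counting. This was not tested, so the Dnmt3b level is uncertain. Dnmt3c had 16 control and 10 cKO UMIs in all, none in spermatogonia-like cells. At the Dnmt3b start (chromosome 2, plus strand, 30 CG), 4 of 5 ATAC libraries had a peak, and the exception was cKO replicate 1, the library with the fewest peaks (14635).

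Dnmt3l, the cofactor without catalytic activity (ENSMUSG00000000730), was highest after meiosis. The 3′ tags do not tell which start was used or whether the transcripts counted encode the full protein. Round-spermatid-like cells had 557 control and 616 cKO UMIs, levels of 18.4 and 21.0. They held 65.8% and 75.3% of all Dnmt3l UMIs. The next class in the control library, Sertoli-like cells, had 10 UMIs at 4.34, a step of 2.08 (1.19 to 3.15) on the log2 scale. In the cKO library preleptotene-like cells came next, on 2 UMIs, and the step did not exceed counting error (1.35, -0.51 to 4.40). Spermatogonia-like cells had 4 and 7 UMIs, against 4.2 and 1.4 expected from free RNA. The clusters show a rise and fall: 4.04 and 3.99 in cluster 11, 7.82 and 7.30 in cluster 20, 12.8 and 14.5 in cluster 21, 24.2 and 22.3 in cluster 7, 31.2 and 29.4 in cluster 10, 20.9 and 25.4 in cluster 8 and 9.11 and 7.65 in cluster 14. Both libraries were highest in cluster 10. Cluster 31, with 131 control and 25 cKO cells, held 4 and 1 Dnmt3l UMIs and is left out of this order.

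Over all cells Dnmt3l had 847 control and 818 cKO UMIs, a ratio of 0.37 (0.23 to 0.51), while the 7 classes with at least 50 cells in each library, given equal weights, gave 0.11 (-0.21 to 0.43). Round-spermatid-like cells made up 16.99% of control and 21.4% of cKO cells, and within them the ratio was 0.19 (0.02 to 0.36). The 2 clusters with the most cells of that class were 14 and 8 in the control and 7 and 10 in the cKO library, and cluster by cluster Dnmt3l was lower in the cKO library in 8 of the 13 clusters with at least 20 UMIs, and 45.7% of genes were lower in as many. No higher level per cluster is read from the class ratio. In a sum over all cells, more cells of a class and more RNA per cell cannot be told apart. Early-prophase-like cells passed 1.5-fold upward with 11 and 12 UMIs (0.68, -0.63 to 2.002), as did 3.22% of genes there, and elongating-spermatid-like cells had 116 and 53 (-0.53, -1.03 to -0.05). The first of the 3 start sites of Dnmt3l is shown because it carried H3K27me3 in part of the spermatogonia libraries (plus strand, CG in capitals).
Dnmt3l first site, chr10:78042037-78042336: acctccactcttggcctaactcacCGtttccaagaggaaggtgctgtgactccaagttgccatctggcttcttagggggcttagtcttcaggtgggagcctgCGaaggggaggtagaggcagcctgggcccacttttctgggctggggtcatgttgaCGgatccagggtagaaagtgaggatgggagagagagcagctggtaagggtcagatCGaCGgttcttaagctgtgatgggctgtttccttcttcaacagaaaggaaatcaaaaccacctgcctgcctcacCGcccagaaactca
Its window holds 6 CG, as many as 56.4% of all sites. A region of H3K27me3 covered the start in control replicate 2 and in cKO replicates 1 and 3, with lengths of 4709, 2642 and 5184 bases and a highest signal of 73, 180 and 79. The other 2 libraries had none. An ATAC peak lay within 1000 bases in 1 of 5 libraries, cKO replicate 3, 893 bases downstream, and within 3000 bases in both control libraries too.

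Tet1, the first of the dioxygenases (ENSMUSG00000047146), was barely detected. The 11252 control cells held 19 UMIs and the 8520 cKO cells 14. Sertoli-like cells had 4 and 9 of them, levels of 1.74 and 5.23. Spermatogonia-like cells had 3 in the control and 0 in the cKO library, where 3 UMIs make a level of 1.81. No class reached the 20 UMIs over both libraries that a ratio was given for. Its start is shown because both chromatin assays listed it in every library (minus strand, CG in capitals).
Tet1, chr10:62887275-62887574: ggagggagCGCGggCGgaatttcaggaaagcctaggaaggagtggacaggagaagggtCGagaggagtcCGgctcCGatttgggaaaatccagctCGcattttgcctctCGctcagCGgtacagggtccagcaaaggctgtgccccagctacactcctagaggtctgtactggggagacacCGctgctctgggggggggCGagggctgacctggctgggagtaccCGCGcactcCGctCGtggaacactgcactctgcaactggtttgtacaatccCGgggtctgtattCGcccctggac
The window holds 17 CG, as many as 31.4% of all sites. A region of H3K27me3 covered this start in all 5 libraries, with lengths of 2200 and 2160 bases in control and 1318, 3044 and 2981 in cKO libraries. The highest signal was 197 and 126 in the control and 216, 225 and 145 in the cKO libraries, so the genotypes overlapped, and no source used here says how libraries were scaled to each other. All 5 ATAC libraries also had a peak within 1000 bases, with folds of 4.26 and 4.09 in control and 3.39, 3.96 and 3.81 in cKO. It covered the start in 4 of 5, and in cKO replicate 1 it lay 228 bases downstream. Start sites with both an ATAC peak and an H3K27me3 region in all 5 libraries of each assay numbered 106 of 32851, or 0.323%, and Tet1 held the only such site among the 15 of the 8 genes.

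Tet2 (ENSMUSG00000040943), a dioxygenase known from blood cells, was highest in the somatic classes, with 56 control and 38 cKO UMIs in all. Leydig-like cells had 10 and 3 UMIs, levels of 10.8 and 3.75. In Sertoli-like cells there were 22 and 13, levels of 9.55 and 7.55. These classes did not differ beyond counting error (0.17, -1.07 to 1.31 in the control library). No germ-cell class exceeded 3.80 by the marker gates, though cKO preleptotene-like cells stood at 6.14 with cluster-based classes. The control step from Sertoli-like to preleptotene-like cells, the next class, did not exceed counting error (1.33, -0.41 to 3.71). Nor did the cKO step from Leydig-like to early-prophase-like cells (1.87, -0.90 to 4.44). Free RNA would give 2.1 and 1.5 UMIs in Leydig-like cells. The cKO over control ratio in Sertoli-like cells was -0.34 (-1.45 to 0.71), in a class whose clusters differ between the libraries, as given for Dnmt1. Leydig-like cells held too few UMIs for a ratio. Its start is shown for its CG content, the highest of the 8 genes (minus strand, CG in capitals).
Tet2, chr3:133544341-133544640: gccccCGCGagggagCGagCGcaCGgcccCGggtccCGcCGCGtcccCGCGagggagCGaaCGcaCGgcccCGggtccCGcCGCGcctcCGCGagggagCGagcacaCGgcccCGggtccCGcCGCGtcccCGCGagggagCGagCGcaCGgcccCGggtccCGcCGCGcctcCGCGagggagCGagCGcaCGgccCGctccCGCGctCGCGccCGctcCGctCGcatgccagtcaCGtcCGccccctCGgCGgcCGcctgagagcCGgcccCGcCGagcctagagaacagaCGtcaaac
The window holds 57 CG, and 0.152% of all start sites hold as many. A peak was listed within 1000 bases in control replicate 2 and cKO replicate 3, the libraries with the most ATAC peaks (33250 and 40497), and in none of the other 3. No H3K27me3 library had a region there.

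Tet3, the dioxygenase known for its role in the zygote (ENSMUSG00000034832), was a gene of spermatogonia-like cells. These had 155 control and 115 cKO UMIs, levels of 70.5 and 69.2, and held 60.8% and 67.3% of all Tet3 UMIs. The ratio of cKO over control there was -0.03 (-0.39 to 0.33). Levels in the undifferentiated gate were 16.2 and 30.6, from 5 and 9 UMIs, below the 79.4 and 77.5 of the differentiating gate. Early-prophase-like cells had 19 and 7 UMIs, at 3.31 and 1.79, and pachytene-like cells 6 and 3. Leydig-like cells stood at 9.69 and 8.76 from 9 and 7 UMIs.

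Preleptotene-like cells gave, for Tet3, the largest ratio among the 33 pairs of a gene and a class with at least 20 UMIs over both libraries. Tet3 had 22 UMIs in 144 control and 16 in 42 cKO cells, levels of 27.9 and 65.9 and a ratio of 1.24 (0.22 to 2.24). In that class 9.8% of 7410 genes were higher and 16.7% lower by 1.5-fold or more. The cKO cells of the class lay more often in spermatogonial cluster 23, as given for Dnmt1. Within cluster 27 Tet3 had 19 and 9 UMIs, levels of 18.3 and 55.3 and a ratio of 1.59 (0.26 to 2.81). The counts are small, and the part of the cells' stage in this ratio was not tested. In early-prophase-like cells the ratio went the other way and also passed 1.5-fold (-0.89, -2.38 to 0.43), as it did for 16.8% of genes. The Tet3 start (chromosome 6, minus strand, 22 CG) had an ATAC peak in 4 of 5 libraries, all but cKO replicate 1 with its short list.

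**Figure D3:**
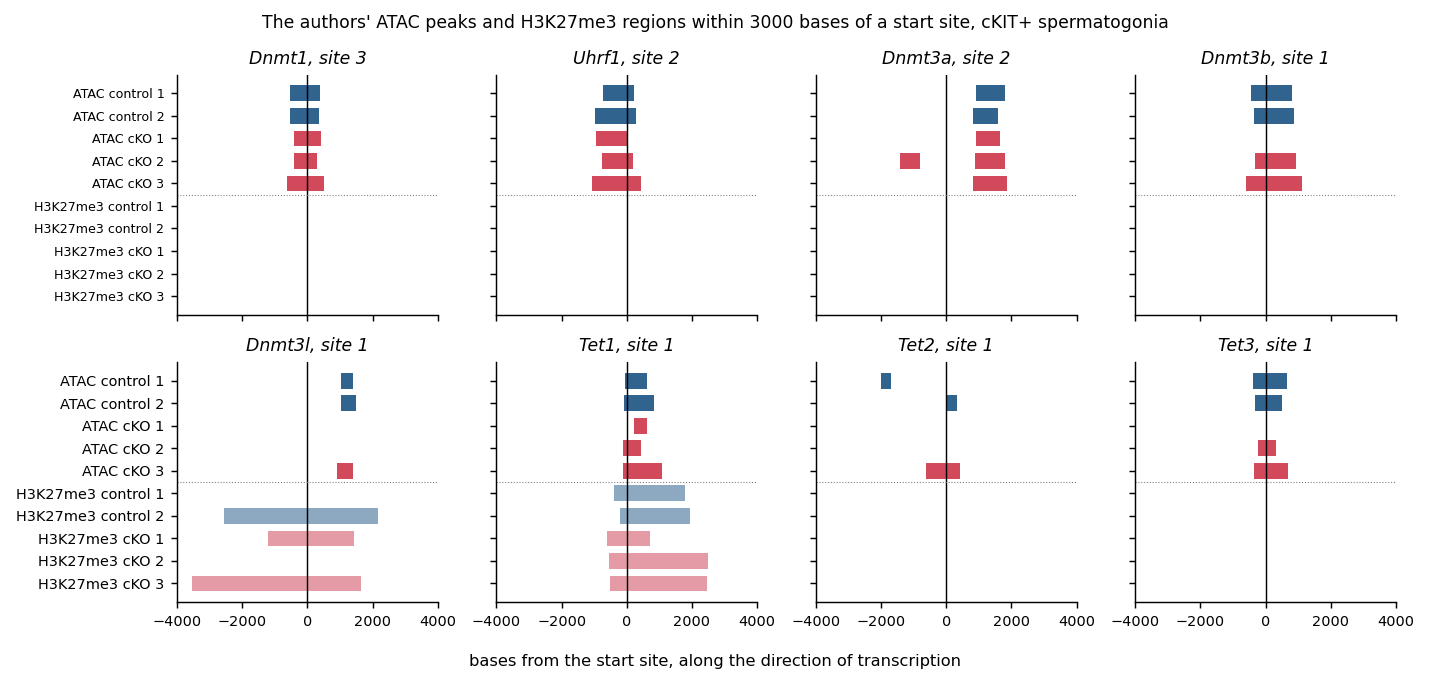
ATAC peaks and H3K27me3 regions of the authors' lists around 1 start site of each of the 8 genes in cKIT+ spermatogonia (x axis, bases from the start along the direction of transcription; each row is a library; blue control, red cKO, lighter bars H3K27me3). Tet1 has both kinds in all 5 libraries, and the first Dnmt3l site, the one shown, has H3K27me3 in 3 of 5. The other 6 genes have no H3K27me3 region within 3000 bases.

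Together the 8 genes have 15 RefSeq start sites. An ATAC peak lay within 1000 bases in all 5 libraries at 6 of them, beside 24.9% of all start sites, and in none at 3, beside 49.9%. Among the 6, both starts of Uhrf1 shared a peak, as did the middle and downstream starts of Dnmt1. H3K27me3 was absent from all 5 lists at 13 of 15, beside 81.8% of all sites, and was present in all 5 at the Tet1 start alone, as at 5.96% of sites. The IgG library had no region at any of them. Within 1000 bases, 6 and 7 of the 8 genes had an ATAC peak in the control libraries, whose lists held 19118 and 33250 peaks. In the cKO libraries 4, 6 and 8 had one, with lists of 14635, 18883 and 40497 peaks. Of all 27025 genes 36.9% and 46.3% had one in the control and 28.6%, 35.1% and 49.4% in the cKO libraries. Within 3000 bases the counts were 8 and 8 in the control and 4, 6 and 8 in the cKO libraries. The shares of all genes there were 39.8% and 50.7% in the control and 30.6%, 37.8% and 54.6% in the cKO libraries. The part of list length or genotype in these counts was not tested.

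Across the 8 classes, 33 pairs of a gene and a class had at least 20 UMIs over both libraries. Of these, 5 were lower in the cKO library by 1.5-fold or more, 15.2%, beside 12.0% of the 100959 pairs of all genes, and 3 were higher, 9.09% beside 5.24%. In spermatogonia-like cells 0 of 5 genes tested passed the fold in either direction, where 11.4% of all genes were lower and 4.5% higher. In pachytene-like cells 0 of 5 passed it, where 7.67% were lower and 2.84% higher. In Leydig-like cells 1 gene, Uhrf1, could be tested and was not lower, where 15.8% of all genes were. None of 4 genes tested in each class passed it upward in round-spermatid-like (3.03%), elongating-spermatid-like (2.29%) or Sertoli-like cells (9.64%). Over all cells 0 of 8 passed, with 6.96% of all genes lower and 3.18% higher. The shares for the 8 genes thus lie near those for all genes, and nothing is read from them.

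The size of the ratios over all cells depended on the mix of classes. Summed over all cells Dnmt1 was lower by 0.52 on the log2 scale (-0.52, -0.62 to -0.41) and, with equal class weights, by 0.35 (-0.35, -0.51 to -0.18), or by 0.15 (-0.15) with thinned cells. Uhrf1 was at -0.14 (-0.22 to -0.07) over all cells and at 0.12 (-0.03 to 0.28) with equal weights, so its direction turned. Dnmt3a was at -0.33 (-0.56 to -0.10) and -0.23 (-0.54 to 0.09). With equal weights the intervals of the other 5 genes spanned 0, from -0.78 (-1.61 to 0.05) for Tet2 to 0.20 (-1.12 to 1.52) for Tet1.

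**Figure D4:**
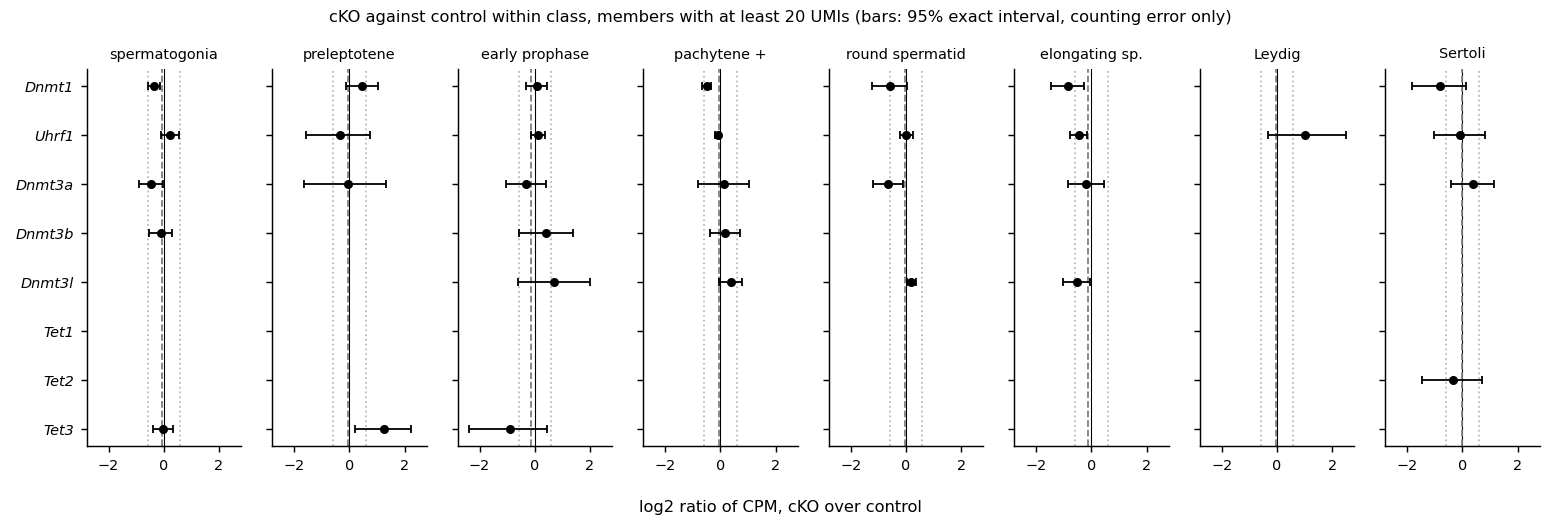
Log2 ratio of cKO over control levels in CPM (x axis) for each of the 8 genes (rows) in 8 classes (panels), shown where both libraries together held at least 20 UMIs; bars are exact 95% intervals for counting error. The dashed line is the median of all genes in the class and the dotted lines mark 1.5-fold; the spermatogonia-like and pachytene-like points of Dnmt1 lie at -0.36 and -0.49, and most other intervals cross 0.

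A further list of 39 genes covers proteins that work with these 8, and 36 of them had at least 20 UMIs over all cells, where 0 passed 1.5-fold. The highest control level lay in spermatogonia-like cells for 15 of the 39, in preleptotene-like cells for 6 and in early-prophase-like cells for 9. Of all genes with at least 200 UMIs, 13.5%, 11.0% and 11.3% peaked there, but the 39 were counted without that limit, and the 15 include Neil1 with 1 UMI in that class and Dppa3 with 4. Whether the highest class exceeded the next beyond counting error was not tested for the 39. In single classes 30 of 235 pairs were lower by 1.5-fold or more in the cKO library and 8 were higher, 12.8% and 3.40%, again near the shares of all genes. In early-prophase-like cells 6 of 33 genes were lower, among them Hells, Tdg, Ogt and Tex15, and none was higher, beside 16.8% and 3.22% of all genes there.

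Among the maintenance partners, Hells, a chromatin remodeller needed for methylation of repeats, peaked in spermatogonia-like cells at 637 CPM in control and 589 in cKO cells. Usp7, a deubiquitinase that binds DNMT1 and UHRF1, peaked in round-spermatid-like cells at 309 and 265. Pcna, the replication clamp, had its highest control level in early-prophase-like cells, at 182 control and 211 cKO. Its control level was nearly as high in pachytene-like (179) and spermatogonia-like cells (173). These 3 genes differed by less than 1.5-fold between the libraries in the classes of their highest control level.

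Of the genes that guard imprinted methylation, Trim28, the corepressor that zinc-finger proteins recruit, stood at 254 and 285 in pachytene-like cells, Zfp445 at 80.9 and 65.6 in early-prophase-like cells and Zfp57 at 24.9 and 25.2 in round-spermatid-like cells. The last 2 encode zinc-finger proteins that protect imprints. Dppa3, which protects methylation in the zygote, had 4 control UMIs and 1 cKO UMI in spermatogonia-like cells. Of the methyl-CpG binding genes, Mbd3 stood at 228 and 231 in pachytene-like and Mbd2 at 215 and 206 in elongating-spermatid-like cells. Mbd4 had 29 and 6 UMIs in preleptotene-like cells. Zbtb38 stood at 58.1 and 37.5 in Leydig-like cells (-0.63, -1.33 to 0.04), past 1.5-fold but with an interval that spans 0. Of all genes with at least 50 UMIs there, 11.3% were lower by 1.5-fold or more and 11% higher.

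Rybp, a subunit of Polycomb repressive complex 1, was lower in cKO spermatogonia-like cells, with 196 control and 87 cKO UMIs at 89.2 and 52.4 (-0.77, -1.15 to -0.40). It was also lower in the cKO library in every other class, with 55.6 and 41.8 in Sertoli-like and 16.1 and 12.5 in Leydig-like cells. No intervals were computed for those classes, and the share of all genes lower in every class was not counted, so nothing is read from this. In spermatogonia-like cells 3 of 32 genes of the list were lower and 1 was higher, beside 11.4% and 4.5% of all genes. Apex1, a base excision endonuclease, stood at 130 and 155 there, Tdg, the glycosylase that removes oxidised methylcytosine, at 40.5 and 35.5, and Ogt, a glycosyltransferase that binds TET proteins, at 54.9 and 52.5 in Leydig-like cells.

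Of 5 histone-modifying genes of the list, Nsd1 and Nsd2 peaked in preleptotene-like cells, Setd2 in early-prophase-like cells, and Kdm1b and Ehmt2 in spermatogonia-like cells. Nsd2 stood at 290 and 194 in preleptotene-like cells (-0.58, -1.07 to -0.12, just short of 1.5-fold), Nsd1 at 243 and 231 in the same class, and Setd2 at 184 and 142 in early-prophase-like cells (-0.37, -0.52 to -0.22). In control spermatogonia-like cells Nsd1 stood at 221, close to its highest level. Of the germline genes for transposon methylation, Tex15 was lower in cKO preleptotene-like cells, with 1104 and 225 UMIs at 1398 and 927 (-0.59, -0.81 to -0.38). Of all genes with at least 50 UMIs there, 13.7% were lower by 1.5-fold or more and 5.15% higher. The preleptotene-like class differs in its clusters between the libraries, as given for Tet3. Tex15 was also lower in the other germ-cell classes, with 652 and 459 in spermatogonia-like and 305 and 102 in early-prophase-like cells. In Sertoli-like cells it was lower (53.8 and 39.5) and in Leydig-like cells higher (19.4 and 30.0). Mael stood at 666 and 723 in pachytene-like cells and Morc1 at 21.8 and 22.3 in spermatogonia-like cells, where Piwil4 had 6 and 5 UMIs. Of the genes that make or recycle the methyl donor, Mat2a stood at 192 and 202 in early-prophase-like and Mat2b at 89.2 and 73.5 in spermatogonia-like cells, while Ahcy had 17 and 7 UMIs.

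**Figure D5:**
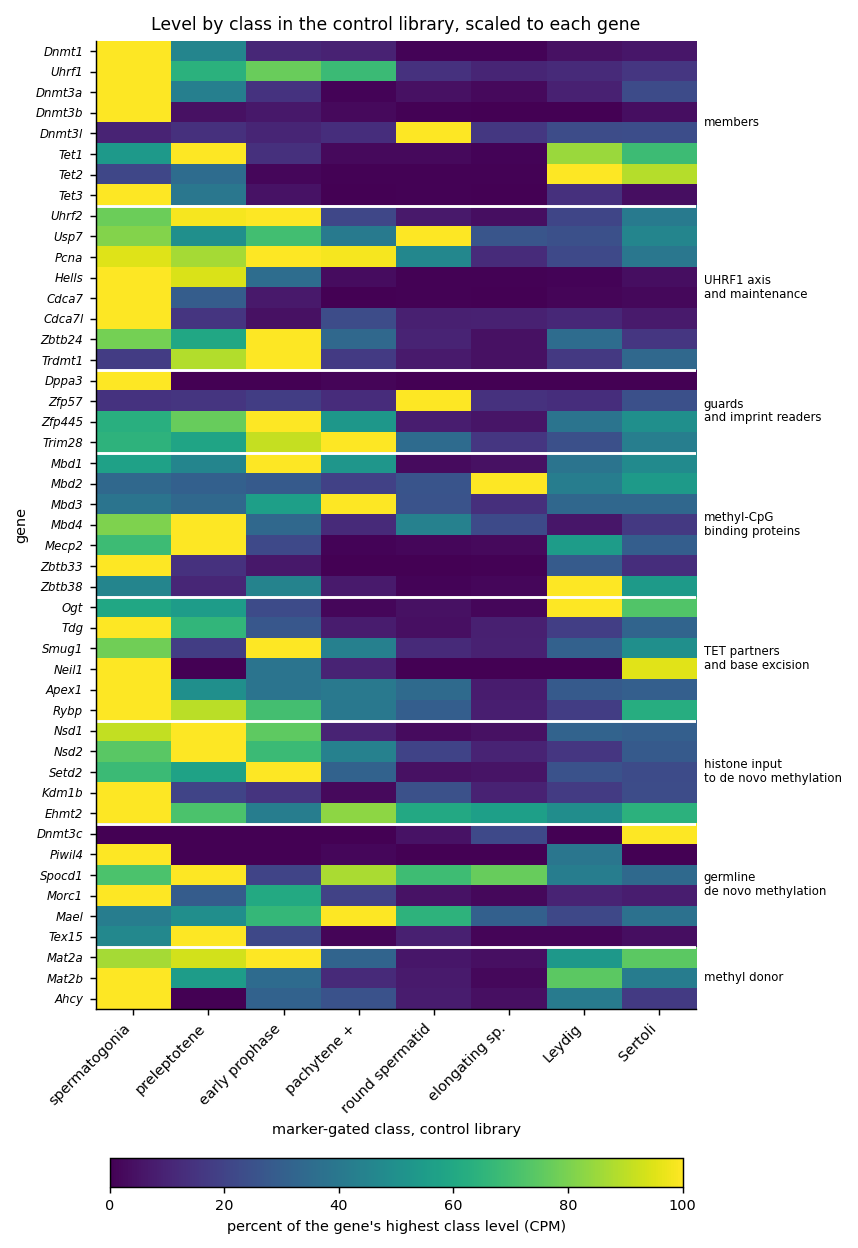
Control level of the 8 genes (top rows) and of the 39 genes that work with them (rows below, by group) in 8 classes (columns), as a percentage of the gene's highest class level in CPM. Most of the bright cells lie in the first 3 columns, and rows such as Tet1, with 2 UMIs in its brightest class, rest on few counts.

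The course over the 8 control classes was also compared with that of 13866 genes with at least 200 UMIs, by Pearson's r of log2(CPM + 1). These r values describe 8 points that come from 1 library. Tonsl (r = 0.99), Fanca (0.98) and Slc12a2 (0.98) were most like Dnmt1, with 0.89, 0.81 and 0.95 over the cKO classes. Fancd2 (0.99), Spice1 (0.98) and Anapc15 (0.98) were most like Uhrf1, with 0.89, 0.98 and 0.97. Pop1, Lonrf3 and Zrsr2 (each 0.97) were most like Dnmt3a, with 0.98, 0.93 and 0.97, and Mast3, Acvr2b and 1500015A07Rik (each 0.96) most like Dnmt3b, with 0.95, 0.94 and 0.93. Mcm2, Dock9 and Arpp19 (each 0.99) were most like Tet3, with 0.99, 0.96 and 0.94 over the cKO classes.

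For Dnmt3l the 3 genes were Gm11872, 4930545E07Rik and 4930557F10Rik, at 0.99, 0.98 and 0.98 in control and 0.53, 0.85 and 0.74 in cKO classes. For Tet2 they were Enc1, Ucp2 and Twf2, at 0.98, 0.97 and 0.97 and then 0.78, 0.84 and 0.77. For Tet1, with 19 UMIs, Igf1r, Bmyc and Bex3 fell from 0.98, 0.98 and 0.97 to 0.50, 0.56 and 0.50. Among the 8 genes themselves, Dnmt3a and Tet3 had r = 0.92 in control and 0.91 in cKO classes, Dnmt1 and Tet3 0.85 and 0.85, and Dnmt1 and Uhrf1 0.84 and 0.86. The r between Dnmt1 and Dnmt3l was -0.67 in control and -0.03 in cKO classes. Dnmt3l had only 2 control and 2 cKO UMIs in preleptotene-like cells, and 4 and 7 in spermatogonia-like cells. No change in any r of Dnmt3l between the libraries is read from such counts.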

How the data were processed

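Single-cell libraries were deposited by the authors as whole-number UMI counts per gene and barcode, made with Cell Ranger per the file headers; the submitters' processing notes also name Seurat 4.1.0 and mm10. The 8 genes were matched by symbol, and 57.8% of control and 57.5% of cKO UMIs lay in barcodes with at least 3000 UMIs. Per the submitters' processing notes, the ATAC files came from cutadapt, Bowtie2 and MACS2 and the CUT&Tag files from cutadapt, Bowtie2, SAMtools, deepTools and SEACR. The deposited peak lists, called per library, give a fold enrichment and a −log10 q-value per ATAC peak and a summed and highest signal per H3K27me3 region, and these values are the authors'.

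Cells were scored on listed markers (105 of 106 were in the files). The scoring was set after the files were seen: the mean over a class's markers of the cell's z-scored log level, clipped at 5, at least 3 markers detected, a score of at least 0.3, a lead of at least 0.15 over the next class and, for preleptotene-like cells, a Stra8 UMI. Leiden clustering (35 clusters, resolution 2, 3000 variable genes, 30 components) left out the 8 genes. Levels are sums over a class. A ratio was computed with at least 20 UMIs over both libraries, and 1.5-fold was the size named. Equal weights used the 7 classes with at least 50 cells in each library. Free RNA was taken from barcodes with at most 100 UMIs and scaled by Leydig markers in germ cells and by elongating-spermatid markers in somatic cells, which gave no usable estimate in Sertoli-like cells. In germ-cell classes, pachytene-like and both spermatid classes among them, the Leydig scaling gave more UMIs than were counted for some of the 8 genes. Genes of the list of 39 are named when past 1.5-fold with at least 50 UMIs in the class of their highest control level, or as 1 of the 3 highest of the others in their group. Dppa3, Neil1, Kdm1b and Ehmt2 are named outside this rule, after their values were seen. For each of the 8 genes, the 3 with the highest r are named. Ratios and intervals were tested on simulated data. The members and lists were chosen with earlier results of these data known. Bulk RNA libraries were not used here, because no table at hand pairs their transcript identifiers with genes. Tools were Python 3.11.15, numpy 2.4.6, scipy 1.17.1, pandas 2.3.3, scanpy 1.11.5 and leidenalg 0.10.2.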

Additional observations from a re-analysis of the deposited data

How the results depend on the processing

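Each of 22 ratios of the 8 genes was recomputed with at least 2000 or 5000 UMIs per barcode, with cluster-based classes, without called doublets, without the 100 most abundant genes in the denominator, with free RNA subtracted, as a mean over cells, and with cells thinned to 3000 UMIs. Free RNA was subtracted from the UMIs of a gene and not from the class total. Of the 22, 6 changed sign in at least 1 setting: the equal-weight ratios of Dnmt3l (to -0.04), Tet1 (to -0.34) and Tet3 (to 0.01), Tet3 in spermatogonia-like cells (to 0.02), and the control steps of Tet1 from preleptotene-like to Leydig-like (to -0.24) and of Tet2 from Leydig-like to Sertoli-like cells (to -0.17). The interval of each spanned 0 as reported. With thinned cells the Dnmt1 ratio of cKO over control moved to -0.13 in spermatogonia-like cells and to -0.15 with equal class weights, from -0.36 and -0.35, and the control step of Uhrf1 from spermatogonia-like to early-prophase-like cells moved to 0.69. With free RNA subtracted, the equal-weight ratio of Tet2 moved to -1.66 and its control step from Leydig-like to Sertoli-like cells to 1.59. Both rest on an estimated free RNA share of 156% and 165% of Sertoli-like UMIs, which is not possible, and nothing is read from them. For the other 3 the cause was not tested. Over all settings the Dnmt1 ratio ranged from -0.55 to -0.13 in spermatogonia-like cells and that of Dnmt3a from -0.79 to -0.14. Subtraction left no Dnmt3l in Sertoli-like cells, so that ratio could not be computed. The 11 counts of genes with a peak within 1000 bases moved by less than 1.5 times at 3000 bases. No paired analysis was possible because each genotype has 1 single-cell library. The alternatives planned for bulk transcripts (another tool, a replicate block, leaving out replicates, no filter) were not run because the transcript identifiers could not be paired with genes.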

Other observations

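Cells of the macrophage-like gate numbered 24 in the control and 11 in the cKO library, too few for a ratio. Tet3 had 8 UMIs in the control cells, a level of 42.8 CPM (18.5 to 84.3), and 1 in the cKO cells. Dnmt1 had 7 control UMIs at 37.4 (15.1 to 77.1) and none in the cKO cells, where 3 UMIs make a level of 47.1.

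Cells left without a class, 770 control and 538 cKO, held 221 and 108 Dnmt1 UMIs and 307 and 225 Uhrf1 UMIs. The opposite-strand transcripts Dnmt3aos and Dnmt3bos had 6 and 6 UMIs in the control and 5 and 4 in the cKO library over all cells, beside 427 and 264 of Dnmt3a and Dnmt3b in the control library.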
